A study of Mus musculus with 2 samples.

Results

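The interferon-response macrophages of mouse pancreatic islets were the 171 cells, the top 10%, chosen by their measured summed level of 5 interferon-induced genes, Ifit1, Ifit2, Ifit3, Rsad2 and Cmpk2, among 1706 gated macrophages and 2237 cell barcodes in all. The cells came from the islets of 6 to 8 C57BL/6J males, pooled, and were sorted as live CD45+ cells without Epcam, a surface protein of epithelial cells. All were wild type (WT), with no treatment in the labels, and the ages of the mice are not given in the sources used here. The single pooled sample was read as an mRNA library and as a library of antibody-derived tags for the surface proteins CD9 and CD206, with both readouts held for the same 2237 barcodes, and no cell could be traced to a mouse. The 171 cells are set against the other 1535 gated macrophages of the same sample.

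Interferons are secreted alarm proteins. Type I interferons, among them interferon beta (Ifnb1), bind the receptor made of Ifnar1 and Ifnar2, whose kinases activate a complex of transcription factors, IRF9 among them, that binds the interferon-stimulated response element (ISRE) of its many target genes. Interferon gamma (Ifng), made mainly by T and NK cells, acts through another receptor and another element, called GAS. Macrophages can sense foreign or displaced nucleic acids, make interferon beta and respond to it, and the islets of mice hold a resident macrophage population.

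A macrophage was a cell with at least 200 genes, at most 10% mitochondrial unique molecular identifiers (UMIs, counts of captured molecules), at least 5000 RNA UMIs and at least 2000 CPM (UMI counts scaled to an equal total) of the complement genes C1qa, C1qb and C1qc together. Interferon-response macrophages had a median of 23758 RNA UMIs and 3967 genes, the other macrophages 20831 UMIs and 4022 genes, and the median mitochondrial share was 1.38% and 1.37%. C1qa, C1qb and C1qc were used by the gate, so the macrophage label was read from genes outside it. Csf1r, the receptor for the growth factor CSF1, stood at 261 CPM in interferon-response and 339 CPM in other macrophages, Adgre1 (F4/80) at 255 and 370.5 CPM and Cd68 at 455 and 553 CPM, and all 3 were detected in both groups at levels of the same order. The T cell receptor subunit Cd3e was at 1.75 and 0.690 CPM. A background group of 133 lymphocyte-like cells, chosen by T, NK and B cell markers and low C1q, is used below for the levels of other genes. A group level is the UMI total of a gene in that group, in CPM. Ratios are interferon-response over other macrophages, with exact 95% intervals that cover counting error only, since with 1 sample no difference has a replicate check and no test was made.

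The rule cut a continuous gradient. The summed level of the 5 genes had its lowest value among the interferon-response macrophages at 7748 CPM, its median at 11672 CPM and its highest at 38935 CPM, while the other macrophages ended at 7719 CPM with a median of 109 CPM. No gap separated the groups: 24 cells lay within 10% of the threshold on the inner side and 21 on the outer side. At the other end, 440 macrophages (25.8%) held no UMI of any of the 5 genes. All 5 genes were detected in 161 of the 171 interferon-response macrophages (94.2%) and 4 of them in the other 10, against all 5 in 192 of the 1535 other macrophages (12.5%).

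**Figure D1:**
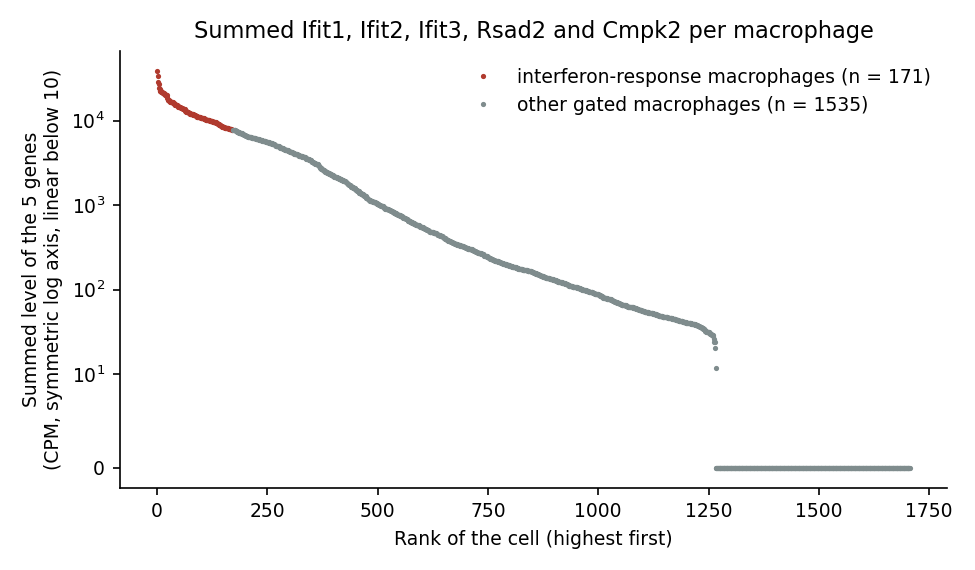
Summed CPM of Ifit1, Ifit2, Ifit3, Rsad2 and Cmpk2 (vertical, symmetric log axis that is linear below 10) for each gated macrophage in order of rank (horizontal). The 171 interferon-response macrophages end at 7748 CPM and the other macrophages begin at 7719 CPM, with no step between them, and the last 440 cells are at 0.

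Start-site sequences of the chosen genes were searched for the interferon elements. Promoter windows of 300 bases (250 before and 50 after the annotated start, RefSeq, GRCm38.p6) are shown for 3 of the 5 genes and for Isg15, Cxcl10 and Gbp5, which the rule did not use, 5′ to 3′ on the strand of the gene. Capitals mark the core of the ISRE, the letters GAAA, any 2 bases and GAAA, found on either strand, and matches that overlap form a single run.
Ifit1 (chr19:34640639-34640938, plus strand): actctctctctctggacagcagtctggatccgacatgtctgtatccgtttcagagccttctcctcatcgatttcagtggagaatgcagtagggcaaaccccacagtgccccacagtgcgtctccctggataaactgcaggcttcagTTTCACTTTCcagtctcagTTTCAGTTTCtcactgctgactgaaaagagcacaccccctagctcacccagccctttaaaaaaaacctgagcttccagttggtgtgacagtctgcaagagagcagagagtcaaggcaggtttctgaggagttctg
Ifit3 (chr19:34583279-34583578, plus strand): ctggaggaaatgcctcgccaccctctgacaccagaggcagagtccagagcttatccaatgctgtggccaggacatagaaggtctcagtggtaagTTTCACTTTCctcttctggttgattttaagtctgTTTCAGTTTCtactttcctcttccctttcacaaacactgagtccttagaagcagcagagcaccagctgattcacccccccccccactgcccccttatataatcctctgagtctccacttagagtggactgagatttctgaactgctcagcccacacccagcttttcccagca
Rsad2 (chr12:26456403-26456702, minus strand): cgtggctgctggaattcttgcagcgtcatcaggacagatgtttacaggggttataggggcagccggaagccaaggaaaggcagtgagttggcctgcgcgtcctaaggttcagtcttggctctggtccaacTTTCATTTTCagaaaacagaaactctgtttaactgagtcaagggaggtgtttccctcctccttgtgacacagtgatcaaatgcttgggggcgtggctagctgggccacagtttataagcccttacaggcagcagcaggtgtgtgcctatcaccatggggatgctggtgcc
Isg15 (chr4:156200769-156201068, minus strand): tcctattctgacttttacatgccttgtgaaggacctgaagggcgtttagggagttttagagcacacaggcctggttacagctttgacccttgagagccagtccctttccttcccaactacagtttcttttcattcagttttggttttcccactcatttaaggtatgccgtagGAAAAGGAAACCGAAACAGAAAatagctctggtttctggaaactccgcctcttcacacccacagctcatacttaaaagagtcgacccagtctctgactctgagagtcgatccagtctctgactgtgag
Cxcl10 (chr5:92348840-92349139, minus strand): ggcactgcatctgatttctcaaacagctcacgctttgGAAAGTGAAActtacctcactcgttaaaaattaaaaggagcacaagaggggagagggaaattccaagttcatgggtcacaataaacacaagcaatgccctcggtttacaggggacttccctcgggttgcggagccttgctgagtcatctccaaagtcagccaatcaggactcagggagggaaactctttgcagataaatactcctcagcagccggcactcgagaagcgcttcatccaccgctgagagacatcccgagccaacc
Gbp5 (chr3:142496684-142496983, plus strand): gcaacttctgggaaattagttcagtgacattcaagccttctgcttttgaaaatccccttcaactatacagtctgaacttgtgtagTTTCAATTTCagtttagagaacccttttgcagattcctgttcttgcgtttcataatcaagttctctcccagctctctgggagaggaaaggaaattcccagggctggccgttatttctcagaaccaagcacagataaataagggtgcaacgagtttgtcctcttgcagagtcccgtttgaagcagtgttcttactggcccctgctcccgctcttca

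The motif was found in 2 places in the windows of Ifit1 and Ifit3, in 3 overlapping places in Isg15 and in 1 place in Rsad2, Cxcl10 and Gbp5. The windows of Ifit2, Cmpk2 and Ifnb1 held no match to these letters. Among all 32851 mouse windows of this length 3.44% held it. The shares of gene groups below count a gene once if any of its windows matched. Of all genes with at least 100 UMIs, 4.26% of those with a window held it (338 of 7925). The share was 43.9% among genes at least 5-fold higher in interferon-response macrophages (25 of 57 with a window, the 5 genes left out), 16.0% among those at least 1.5-fold higher (95 of 592), 3.54% among genes under 1.5-fold apart (182 of 5147) and 2.66% among those at least 1.5-fold lower (58 of 2181). Of the interferon-inducible GTPases described below, 8 of the 9 with a window held it. A second motif, TTCNNNGAA, the core of GAS, was in 8.30% of all windows. Counted by gene, it was in 8.30% of all genes with at least 100 UMIs and a window (658 of 7925). It was in 5 of the 9 GTPases with a window and in 17.5% of the genes at least 5-fold higher. The share was 11.99% of those at least 1.5-fold higher and 7.61% of those at least 1.5-fold lower. A match is a description of letters and not a measured binding site. Rsad2 and Cmpk2 lie on chromosome 12 with start sites 12763 bases apart, and the 6 Ifit genes in RefSeq span 112 kb of chromosome 19.

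The 5 genes that chose the cells are antiviral effectors. Ifit1 (ENSMUSG00000034459), Ifit2 and Ifit3 are RNA-binding proteins that restrain viral translation, Rsad2 (viperin) makes an altered nucleotide that ends viral RNA chains, and Cmpk2 is a mitochondrial nucleotide kinase. Rsad2 was the most abundant of them, with 220, 5881 and 22104 CPM in the lowest, median and highest interferon-response macrophage, against 0, 48.5 and 7077 CPM in other macrophages. The group levels were 6310 and 487 CPM for Rsad2, 2859 and 231 CPM for Ifit2, 1580 and 113 CPM for Ifit3, 1524 and 139 CPM for Ifit1 and 599 and 31.8 CPM for Cmpk2, in interferon-response and other macrophages. These values follow from the rule. In 133 lymphocyte-like cells, whose median depth was 8954 UMIs, Ifit1 stood at 176 CPM and Rsad2 at 71.3 CPM.

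To read a part of the rule against genes that part did not use, the cells were also ranked by part of it. The top 10% by Ifit1, Ifit2 and Ifit3 alone shared 144 of the 171 cells (84.2%), and in them Rsad2 was 9.64-fold (9.46 to 9.83) and Cmpk2 14.6-fold (13.6 to 15.7) higher than in the rest. Ranked by Rsad2 and Cmpk2 alone, 143 of the 171 cells (83.6%) were the same, and Ifit1 was 9.21-fold, Ifit2 9.41-fold and Ifit3 10.8-fold higher. The shared cells follow in part from the sum that chose the 171, which holds the genes of either ranking. The genes left out of a ranking had no part in that ranking. All genes of the rule were, however, chosen with earlier results of these data known, so these ratios are no independent check.

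Across all genes the comparison was lopsided. Of 9940 genes with at least 100 UMIs over the gated macrophages, the 5 rule genes left out, 754 (7.59%) were at least 1.5-fold higher and 2754 (27.7%) at least 1.5-fold lower in interferon-response macrophages. The higher genes with the rule genes took up 14.9% of all UMIs in interferon-response macrophages and 5.27% in other macrophages, and the median gene had a ratio of 0.803 (log2 −0.32). With that median set to 0, 1253 genes (12.6%) were higher and 1295 (13%) lower, so the higher share of the calls was 21.5% on the total-UMI scale and 49.2% on the centred one. List medians below are therefore given on both scales.

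**Figure D2:**
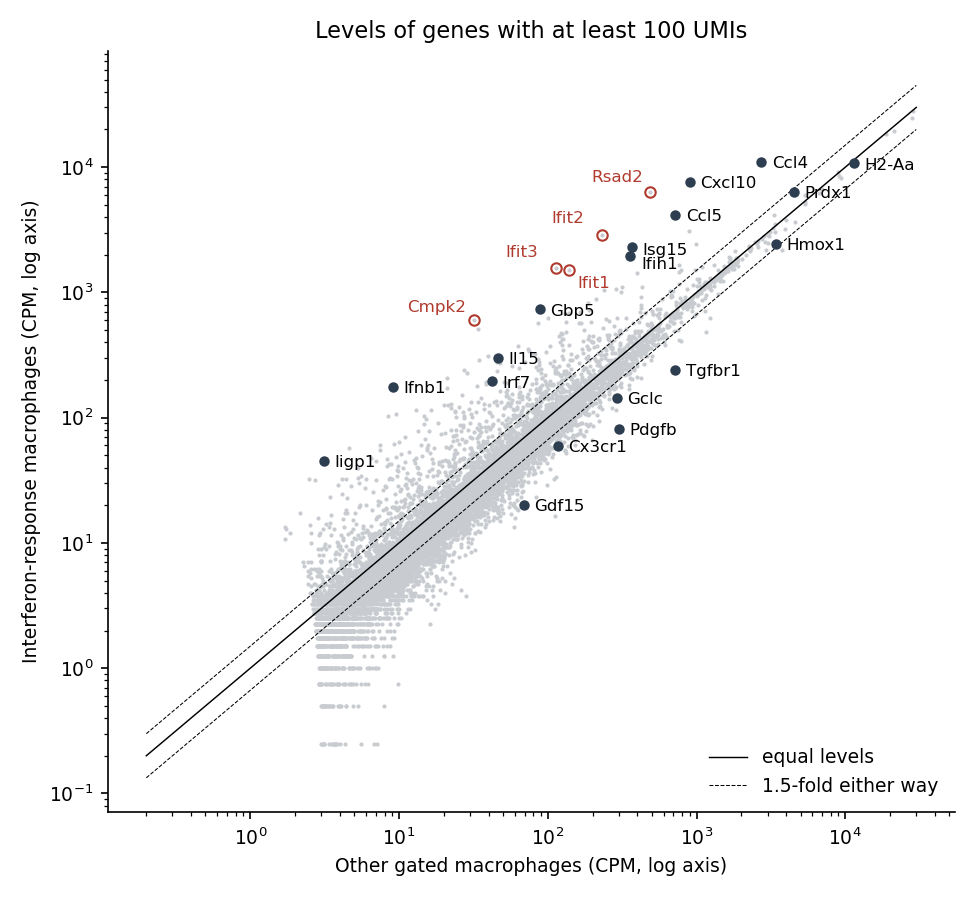
Level of each gene with at least 100 UMIs in interferon-response macrophages (vertical, CPM, log axis) and in other macrophages (horizontal, CPM, log axis), leaving out genes with no UMI in a group. Red rings are the 5 genes of the rule and dark points other named genes; Cxcl10 (7657 and 897 CPM) lies far above the line of equal levels and Tgfbr1 (242 and 721 CPM) below it.

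The interferon ligand UMIs counted in gated macrophages were nearly limited to Ifnb1 (ENSMUSG00000048806), which encodes interferon beta. Its lowest, median and highest cell stood at 0, 0 and 4245 CPM among interferon-response macrophages, against 0, 0 and 1209 CPM among other macrophages. In all, 708 UMIs lay in 80 of the 171 interferon-response macrophages (46.8%), against 304 UMIs in 86 of the 1535 other macrophages (5.60%). The group levels were 177 and 9.11 CPM, a ratio of 19.4 (16.9 to 22.2). Drawn down to 5000 UMIs per cell, 25.7% of interferon-response macrophages (19.4 to 33.0%, exact Clopper-Pearson) and 2.21% of other macrophages (1.54 to 3.08%) kept an Ifnb1 UMI. None of the 121 lymphocyte-like cells with that depth did, which allows a share of up to 3.003% by the same exact interval.

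Ifnb1 was concentrated in few cells. Interferon-response macrophages, 10.0% of the gated macrophages, held 70.0% of their Ifnb1 UMIs. A single interferon-response macrophage had 117 UMIs, 11.6% of the total, and the next 68, while the highest other macrophage had 73; without the cell with 117 the ratio was 16.3. At least 5 UMIs were found in 27 interferon-response and 15 other macrophages, and these cells together held 80.5% of the UMIs. The 13 numbered Ifna genes (interferon alpha) had 0 UMIs in every kept cell, and the related Ifnab had 1 UMI in other macrophages. Reads may be lost between close gene copies, so a count of 0 need not mean absence. Ifnk had 1 UMI in interferon-response and 5 in other macrophages. Ifng had 0 UMIs in interferon-response macrophages, 1 in other macrophages and 49 in 15 of the lymphocyte-like cells.

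The interferon receptor genes were not higher. Ifnar1 stood at 99.3 CPM in interferon-response and 137 CPM in other macrophages (ratio 0.726, 0.653 to 0.804), and Ifnar2 at 243 and 328 CPM (0.741). The interferon gamma receptor chain Ifngr1 had a ratio of 0.684 and Ifngr2 of 0.615. Ifngr2 was past the 1.5-fold limit with total-UMI scaling and not with the median gene set to 0. Of 8 receptor and kinase genes 1 was higher and 1 lower by the 1.5-fold limit, against 7.59% and 27.7% of all genes. The higher one was Jak2, a receptor-bound kinase (1.57). The median log2 ratio of the list was −0.44 (−0.12 against the median gene).

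Signal-transducing factors were higher in part. Stat2 stood at 258 against 109 CPM (2.38-fold, 2.22 to 2.55), and Irf9 was 1.56-fold higher (130 and 83.2 CPM, 1.42 to 1.72). Irf7 (ENSMUSG00000025498), itself induced by interferon and a driver of further interferon transcription, was at 195 CPM against 42.2 CPM (4.62-fold, 4.23 to 5.05), Irf1 at 884 against 211 CPM (4.19-fold) and Irf8 at 574 against 167 CPM (3.43-fold). Irf3, which starts interferon beta transcription after nucleic acid sensing and is regulated by phosphorylation, had a ratio of 0.755 with an interval of 0.544 to 1.03. In the list of STAT and IRF factors 8 of 15 genes were at least 1.5-fold higher and 1 lower (median log2 0.64, 0.96 centred). Of all genes 7.59% were higher and 27.7% lower.

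Effector genes beyond the rule were higher almost throughout. Past the UMI minimum, 56 of 61 type I interferon effectors were higher by at least 1.5-fold and none lower, against 7.59% and 27.7% of all genes. Their median log2 ratio was 1.95 (2.26 centred), where the median of all genes is −0.32. Isg15 (ENSMUSG00000035692), a ubiquitin-like protein attached to other proteins, had 209, 1845 and 12238 CPM in the lowest, median and highest interferon-response macrophage, against 0, 89.5 and 7304 CPM in other macrophages (6.30-fold, 6.13 to 6.47). Ifit3b, a close copy of Ifit3, was 14.98-fold higher, Trim30c 12.2-fold, Slfn1, of the Schlafen family, 8.96-fold, and the DNA-binding Ifi200 family members Ifi208, Ifi205 and Ifi213 were 12.4-fold, 8.80-fold and 8.34-fold higher. Samhd1, which depletes the nucleotides that viruses need, stood at 573 against 161 CPM (3.56-fold). Members of the Ifit, Trim30, Ifi200 and guanylate-binding families have near-identical copies, between which reads may be split or lost, so their separate values are uncertain.

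All 13 interferon-inducible GTPases past the minimum, which attack the vacuoles of intracellular microbes, were higher by at least 1.5-fold (median log2 2.33, 2.65 centred), where 7.59% of all genes were. Gbp5 (ENSMUSG00000105504), of the same kind but not counted in that list, had group levels of 733 and 88.2 CPM (8.31-fold, 7.89 to 8.75). It had 0, 623 and 3102 CPM in the lowest, median and highest interferon-response macrophage and 0, 0 and 2421 CPM in other macrophages. Within the list Ifi47 was 7.86-fold, Igtp 6.95-fold, Gbp4 6.47-fold, Gbp2 5.03-fold and Irgm1 4.76-fold higher. Iigp1 differed from the others by its rarity: 20 interferon-response and 19 other macrophages held a UMI, and its ratio of 14.3 was 25.8 without 1 other macrophage that held 16.5% of its UMIs. Lymphocyte-like cells held it at 57.2 CPM, against 44.9 CPM in interferon-response and 3.15 CPM in other macrophages.

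**Figure D3:**
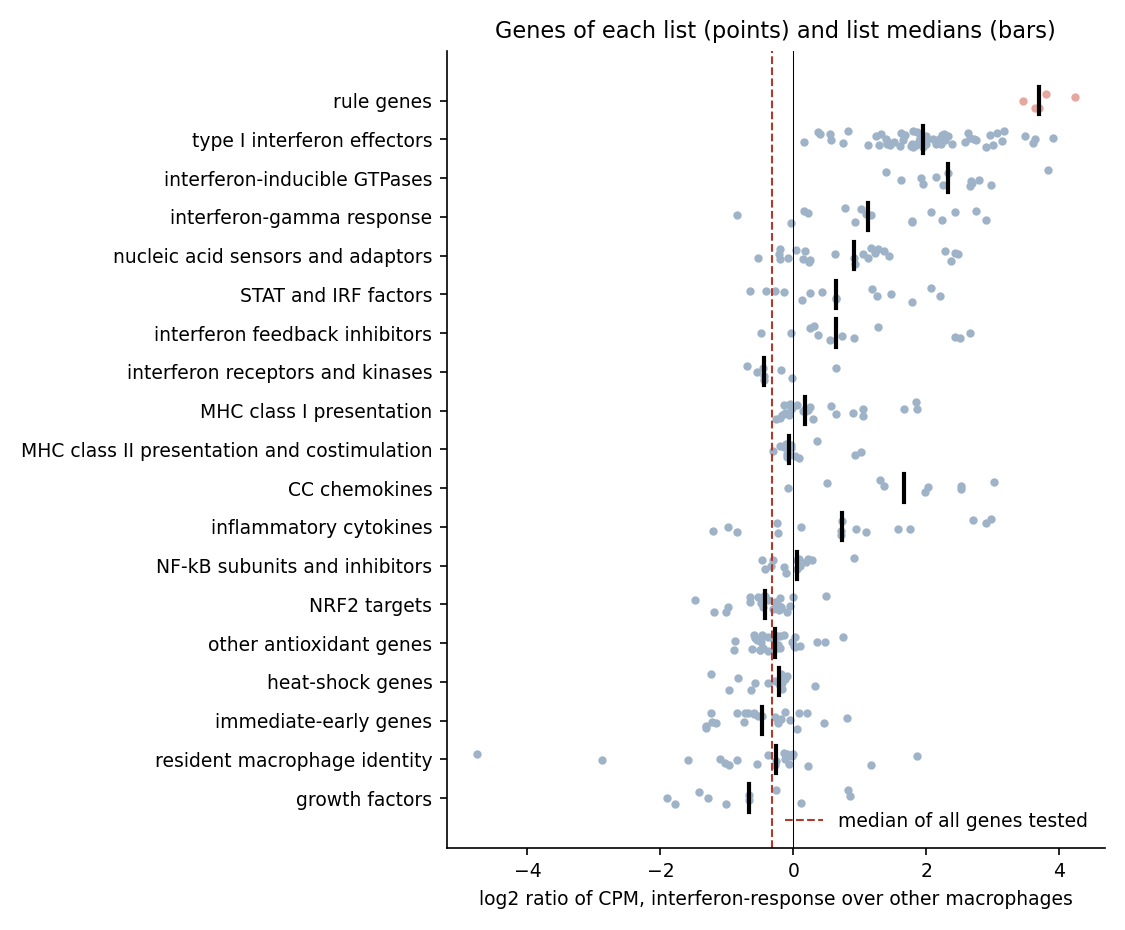
log2 ratio of CPM, interferon-response over other macrophages (horizontal), for the genes of 19 lists with at least 100 UMIs (points, 1 row per list, with small random vertical offsets) and the median of each list (black bars). The dashed red line is the median of all genes tested (−0.32); the interferon effector and GTPase medians lie at 1.95 and 2.33, and the NRF2 target median at −0.43, and 1 CC chemokine with no UMI in interferon-response macrophages is not drawn.

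Sensors of nucleic acids, which can start interferon production, were higher in 14 of 24 cases and at least 1.5-fold lower in none (median log2 0.92, 1.24 centred). Of all genes 7.59% were higher and 27.7% lower by that limit. The RNA sensors led: Ifih1 (MDA5) stood at 1937 against 360 CPM (5.39-fold, 5.23 to 5.54), Ddx58 (RIG-I) was 5.18-fold, Tlr3, the endosomal receptor for double-stranded RNA, 5.55-fold and Zbp1, which binds left-handed nucleic acid, 4.86-fold higher. The DNA sensors Cgas and Aim2 were 2.57-fold and 2.26-fold higher. Negative regulators were higher in part, with 6 of 12 feedback inhibitors at least 1.5-fold up and none down, against the same shares of all genes. Usp18 (ENSMUSG00000030107), which removes ISG15 and blocks the type I receptor, had group levels of 274 and 47.9 CPM (5.72-fold, 5.29 to 6.18), Socs1, an inhibitor of JAK kinases, was 5.38-fold and Adar, which edits double-stranded RNA, 2.42-fold higher.

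Part of the antigen presentation genes were higher. In the class I list these were Nlrc5, the class I transactivator, 3.62-fold, Tap1, the peptide transporter, 3.16-fold, Tapbp 2.08-fold and the immunoproteasome subunits Psmb9 and Psmb10, 1.87-fold and 1.57-fold, with the non-classical class I genes H2-T24 (28.7 against 8.01 CPM, 3.58-fold) and H2-T22 (95.3 against 46.2 CPM, 2.06-fold). The classical class I genes had ratios of 0.971 for H2-K1 (1261 and 1299 CPM), 0.960 for H2-D1, and their light chain B2m of 1.04. Altogether 7 of 24 class I genes passed 1.5-fold upwards and none downwards (median log2 0.18, 0.49 centred), against 7.59% and 27.7% of all genes. In class II, H2-Aa had a ratio of 0.936 (0.927 to 0.945) and Cd74 of 0.980, while the costimulatory Cd40 and Cd86 were 2.02-fold and 1.91-fold higher. Cd274 (PD-L1), which restrains T cells, stood at 294 against 85.4 CPM (3.44-fold).

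The CC chemokines were higher in 7 of 10 cases and lower in 1 (median log2 1.67, 1.99 centred), against 7.59% and 27.7% of all genes. Ccl5 (ENSMUSG00000035042), which draws T cells, had 0, 3855 and 12880 CPM in the lowest, median and highest interferon-response macrophage and 0, 49.5 and 12061 CPM in other macrophages (5.74-fold, 5.63 to 5.85), although lymphocyte-like cells also held it at 1787 CPM. Ccl4 stood at 11074 against 2729 CPM (4.06-fold), Ccl12 was 5.76-fold, Ccl2 3.94-fold and Ccl3 2.47-fold higher. Ccl7 was 8.13-fold higher with 14.4% of its UMIs in 1 interferon-response macrophage, and 5.81-fold without that cell. Of the CXC chemokines 2 of 7 were higher and 2 lower (median log2 −0.22, 0.10 centred), where 27.7% of all genes were lower. With the median gene set to 0, 2 CXC chemokines were higher and 0 lower. Cxcl10 (ENSMUSG00000034855), a ligand of CXCR3 on T cells, was not counted in that list. It had 553, 7349 and 28700 CPM in the lowest, median and highest interferon-response macrophage and 0, 56.2 and 18567 CPM in other macrophages. Every interferon-response macrophage held it, and the ranges overlapped. Its group levels of 7657 and 897 CPM gave a ratio of 8.53 (8.40 to 8.67). Cxcl9, another CXCR3 ligand, was 4.71-fold higher and 8.02-fold higher without 1 other macrophage that held 26.4% of its UMIs, whereas the neutrophil attractant Cxcl2 stood at 2196 against 3758 CPM (ratio 0.584, 0.572 to 0.597).

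Of 16 cytokines 10 were at least 1.5-fold higher and 3 lower (median log2 0.73, 1.04 centred), against 7.59% and 27.7% of all genes. With the median gene set to 0, 10 were higher and 2 lower. Tnfsf10 (TRAIL) was 7.90-fold, Il27 7.43-fold and Il15, which sustains NK and memory T cells, 6.49-fold higher (302 and 46.6 CPM), followed by Il6 at 3.39-fold and Tnf at 2.15-fold. Il12b, a subunit of the cytokines IL-12 and IL-23, stood at 89.6 against 162 CPM (ratio 0.554, 0.497 to 0.617), and Osm had a ratio of 0.508. NF-kB subunits and inhibitors had a median log2 of 0.06 (0.38 centred), with 1 of 14 at least 1.5-fold higher, near the 7.59% of all genes. Of 20 genes of cell death 4 were higher and 2 lower (median log2 0.26, 0.58 centred). Among the higher ones, Mlkl, which perforates the membrane in necroptosis, was 6.40-fold, Xaf1 3.21-fold and the inflammatory caspase Casp4 1.76-fold higher. Ch25h, which makes the antiviral 25-hydroxycholesterol, was 3.45-fold and Acod1, which makes itaconate, 2.65-fold higher.

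The series title concerns an antioxidant program, so NRF2, the transcription factor of the oxidative stress response, and its targets were read in the same comparison. Of 26 NRF2 targets 6 were lower by the 1.5-fold limit and none was higher, near the share of all genes that were lower (27.7%), and the median log2 ratio of −0.43 was −0.12 against the median gene. Prdx1 (ENSMUSG00000028691), a peroxiredoxin that removes hydrogen peroxide, went the other way within the list: its lowest, median and highest cell stood at 159, 5981 and 17236 CPM among interferon-response macrophages and at 0, 3377 and 21918 CPM among other macrophages (group levels 6352 and 4500 CPM, 1.41-fold, 1.39 to 1.43). Hmox1 (ENSMUSG00000005413), which degrades heme, stood at 2431 against 3409 CPM (ratio 0.713, 0.699 to 0.728) and Gclc, the catalytic subunit of glutathione synthesis, at 144 against 293 CPM (0.494, 0.453 to 0.537). Nfe2l2, which encodes NRF2, had a ratio of 0.669 and its repressor Keap1 of 1.40. The other named targets were under 1.5-fold apart (Txnrd1 0.941, Srxn1 0.862, Gclm 0.808, Slc7a11 0.729, or 0.645 without 1 interferon-response macrophage), except Nqo1 (0.436 at 7.24 and 16.6 CPM). Of 34 further antioxidant genes 1 was higher and 4 were lower, a smaller lower share than the 27.7% of all genes. Their median log2 was −0.28 (0.03 centred), and with the median gene set to 0, 3 were higher and 0 lower. Gpx4 (0.663) was among the 4 on the total-UMI scale, while Sod2 (0.874), Gpx1 (0.817) and Cat (0.731) were under the limit.

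The genes that were lower in interferon-response macrophages included receptors and growth factors. Tgfbr1 (ENSMUSG00000007613), a receptor for TGF-beta, had 0, 147 and 2321 CPM in the lowest, median and highest interferon-response macrophage and 0, 422 and 7334 CPM in other macrophages (group levels 242 and 721 CPM, ratio 0.335, 0.314 to 0.357). The fractalkine receptor Cx3cr1 had a ratio of 0.509, and the transcription factor Pparg of 0.464. In the identity list 7 of 21 genes were lower, near the 27.7% of all genes that were, with a median of 0.06 against the median gene, and 2 were higher, Mertk (3.64), a receptor for dying cells, and Fcgr1 (2.24), the high-affinity IgG receptor, and 1 other macrophage held 10.2% of the Mertk UMIs. Growth factor genes had the lowest median of the lists shown (log2 −0.67, −0.35 centred), with 7 of 11 lower: Pdgfb stood at 81.1 against 302 CPM (0.269), Gdf15 at 20.2 against 69.2 CPM (0.292) and Pdgfa at 38.9 against 104 CPM (0.374). The inducible heat-shock genes Hspa1a (0.422) and Hspa1b (0.511) and the immediate-early gene Fosb (0.404), of gene groups that tissue dissociation can switch on, were lower too. By list, 4 of 15 heat-shock genes were lower and none higher, which is near the 27.7% of all genes, with a median of 0.10 against the median gene, and 11 of 25 immediate-early genes were lower and 1 higher (−0.15 against the median gene). The part of dissociation in these ratios was not tested.

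Markers of other cells were read beside these ratios. T cell and acinar markers were at 0 in 153 and 169 of the 171 interferon-response macrophages and in 1427 and 1496 of the 1535 other macrophages. NK cell markers were at 0 in 147 interferon-response and 1459 other macrophages and summed to 14.97 and 6.48 CPM over the groups, and their 1 gene past the minimum, the receptor Klrk1, stood at 10.5 against 4.23 CPM (2.48-fold, 1.71 to 3.52). Endocrine markers summed to medians of 1145 and 1008 CPM, conventional dendritic cell markers to 119 and 187 CPM and monocyte markers to 39.6 and 72.3 CPM, with Ccr2 at 10.7 against 30.9 CPM. Plasmacytoid dendritic cell markers, cells known for much interferon, summed to 366, 1630 and 10436 CPM in the lowest, median and highest interferon-response macrophage and to 61.7, 941 and 4198 CPM in other macrophages. Of the 5 genes of that list past the minimum 2 were at least 1.5-fold higher, where 7.59% of all genes were. Among them was Irf8, which macrophages also express and which is counted above. The part of plasmacytoid dendritic cells in the ratios was not tested.

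Levels were also read along the whole ranking. The macrophages were put into 9 groups, the first being the 171 interferon-response macrophages, the next 7 following in rank and the last the 440 cells with none of the 5 genes. From the last group to the first, Cxcl10 stood at 133, 163, 177, 201, 450, 677, 1651, 4004 and 7657 CPM. Ifnb1 stayed under 4 CPM up to the fourth group (3.25 CPM), then stood at 10.9, 57.3 and 177 CPM in the third, second and first. Irf7, at 12.04 CPM in the last group, stood at 70.8, 141 and 195 CPM in the third, second and first. In the same order Tgfbr1 stood at 885, 663, 834, 818, 790.05, 601, 551, 435 and 242 CPM, and Nfe2l2 at 1045, 1005, 1074, 969.8, 1075, 999.8, 925, 869 and 668 CPM. Other genes did not follow the ranking: Il12b was highest in the fourth and the fifth group (361 and 251 CPM) and stood at 89.6 CPM in the first, and Cxcl9 stood at 156 CPM in the second and 113 CPM in the first. The median RNA depth of these groups was 18986.5 UMIs in the last, 27873 in the eighth (72 cells), 21645 in the third, 23100.5 in the second and 23758 in the first, and its part in the levels was not tested.

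**Figure D4:**
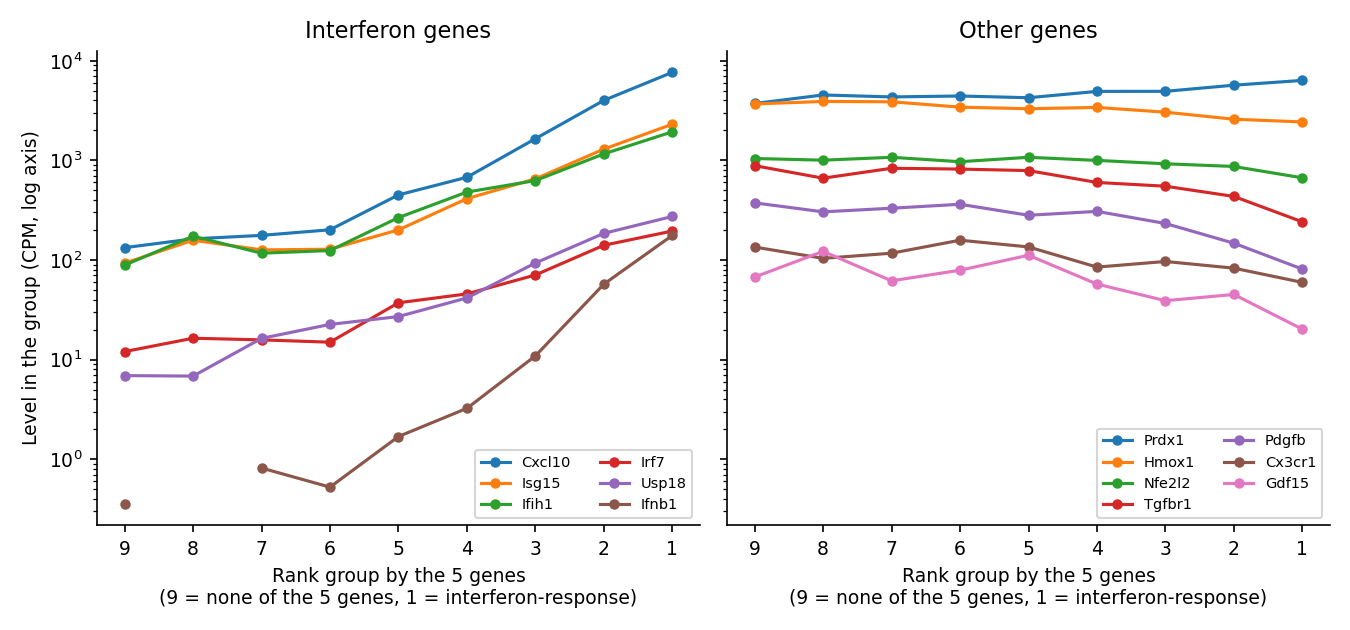
Level (CPM, log axis) of interferon genes (left) and other genes (right) in 9 rank groups of macrophages, from the 440 cells with none of the 5 rule genes (group 9) to the 171 interferon-response macrophages (group 1); Ifnb1 has no point in group 8, where it had no UMI. Ifnb1 climbs to 177 CPM in group 1 from under 4 CPM in groups 4 to 9, and Tgfbr1 stands at 242 CPM in group 1 against 885 CPM in group 9.

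Interferon-response macrophages differed among themselves by Ifnb1. The 80 cells with an Ifnb1 UMI and the 91 without one had median summed levels of the 5 rule genes of 12706 and 10865 CPM and median depths of 25004 and 20815 UMIs. Of 4332 genes with at least 100 UMIs in both together, 252 (5.82%) were at least 1.5-fold higher and 387 (8.93%) at least 1.5-fold lower in Ifnb1-positive cells. The CC chemokines had the highest list median (log2 0.82, 5 of 9 higher), with Ccl7 at 316 against 38.4 CPM (8.21-fold, 5.60-fold without the cell richest in it) and Ccl4 at 15096 against 7350 CPM (2.05-fold, 2.01 to 2.09). Il1a was 3.95-fold, Cxcl2 2.55-fold and Tnf 2.45-fold higher, and 9 of 15 heat-shock genes were higher (median log2 0.63), among them Hspa1b (3.28-fold). Of 19 immediate-early genes 7 were higher and 0 lower (median log2 0.37). Tissue dissociation can switch on genes of both groups, and its part in this split was not tested. Endocrine markers moved with the split, 3 of the 4 past the minimum being higher (median log2 0.66), and their part in it was not tested. Ppp1r15a, which restarts translation after stress and was named after its values were seen, stood at 1650 against 406 CPM (4.07-fold, 3.77 to 4.40).

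Most interferon-induced genes were not higher in Ifnb1-positive cells. Of 61 type I interferon effectors 1 was higher and 8 were lower by the 1.5-fold limit (median log2 −0.24, where the median of all genes was −0.09). Of all genes in this split 5.82% were higher and 8.93% lower. Ifih1 (1.92-fold, 1.83 to 2.01), Isg15 (1.82-fold, 1.74 to 1.90) and Ifit1 (1.49-fold) stood higher in Ifnb1-positive cells, while Cxcl10 (0.984, 0.962 to 1.01), Ifit3 (0.991), Usp18 (0.991) and Gbp5 (0.949, 0.882 to 1.02) had ratios near 1. Gbp4 (54.5 against 138 CPM, 0.395, 0.313 to 0.496), Tnfsf10 (0.379), Slfn1 (0.480), Ifi47 (0.522) and Socs1 (0.609) were lower in them, and Irf7 (0.723) stood below 1 within the limit. The GTPase list had a median log2 of −0.48, with 4 of 13 lower and none higher. Ifnb1 is found more readily in deeper cells, so the split was repeated on 5000 UMIs drawn from each cell: the 44 cells that kept an Ifnb1 UMI and the 127 that did not had median depths of 24597 and 23427 UMIs. There Isg15 had a ratio of 1.85, Ifih1 of 1.83, Ccl7 of 5.24 and Ccl4 of 2.09, Gbp4 of 0.291, Ifi47 of 0.389, Socs1 of 0.439 and Irf7 of 0.542. Cxcl10, Usp18 and Gbp5 were further from 1 in that split, at 0.848, 0.833 and 0.727.

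**Figure D5:**
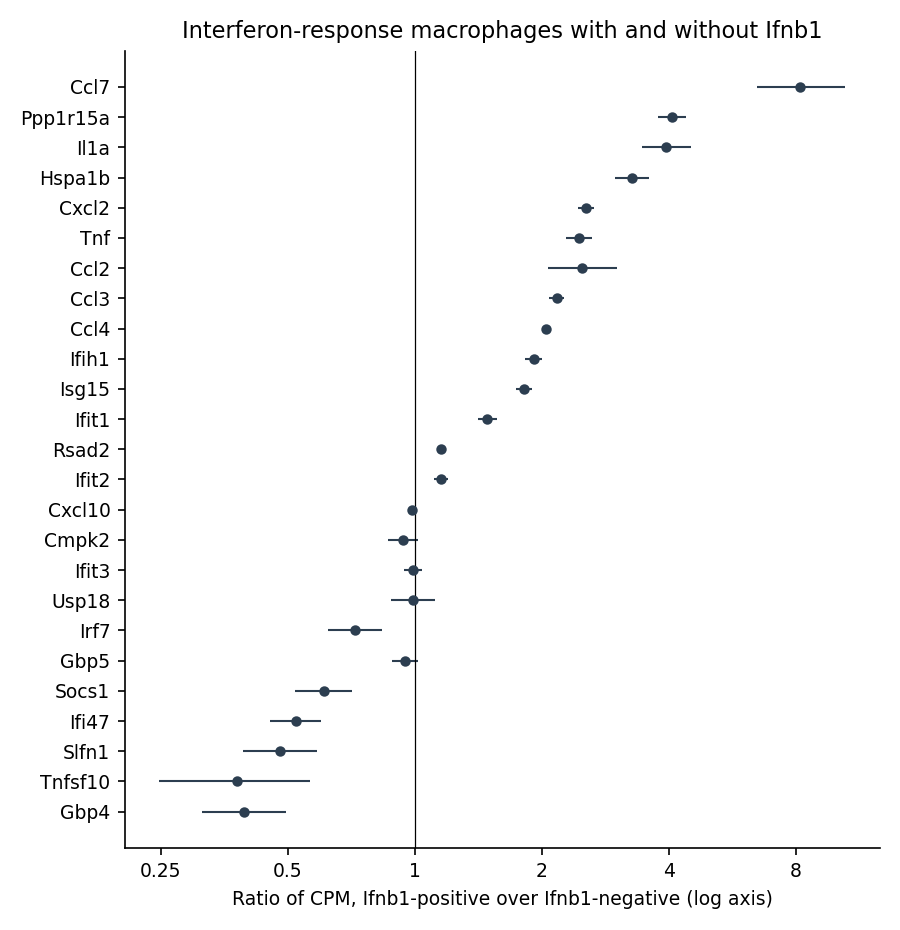
Ratio of CPM between the 80 Ifnb1-positive and the 91 Ifnb1-negative interferon-response macrophages (horizontal, log axis) for named genes, with exact 95% intervals of counting error. Ccl7 (8.21) and Ccl4 (2.05) lie right of the line of equal levels, Cxcl10 (0.984) on it and Gbp4 (0.395) left of it.

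Correlations over the 171 cells are given as a description. All pairs are of one sample and of CPM with shared totals, and the choice of cells by a sum narrows the range of the 5 genes. Rsad2 and Cmpk2 had a Spearman rho of 0.53, Ifnb1 and Isg15 of 0.49 and Cxcl10 and Gbp5 of 0.43, whereas Ifnb1 had −0.23 with Irf7. Over the 1535 other macrophages the same pairs, in that order, had 0.53, 0.27, 0.36 and 0.06.

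Surface CD9, a tetraspanin read from the antibody library, did not set the interferon-response macrophages apart. Its lowest, median and highest counts were 16, 740 and 15076 UMIs per cell in interferon-response macrophages and 2, 645 and 37469 in other macrophages, with means of 1818 and 1816 (ratio 1.001, 0.997 to 1.005) and a ratio of 0.928 per RNA UMI. The interferon-response macrophages were 9.72% (7.40 to 12.5%) of the macrophages in the highest tercile of CD9 UMIs, set within levels of RNA depth, 8.95% of the middle and 11.4% (8.91 to 14.3%) of the lowest tercile, against 10.0% of all. Cd9 mRNA stood at 164 against 224 CPM (0.732, 0.675 to 0.793). CD206, the mannose receptor encoded by Mrc1, had means of 60.2 and 21.2 UMIs per cell (ratio 2.84), but 1 interferon-response macrophage held 6365 UMIs. Without the cell richest in the tag in each group the ratio was 1.16 (1.12 to 1.20), the medians were 10 and 9 UMIs, and Mrc1 mRNA had a ratio of 0.921 with an interval of 0.755 to 1.11.

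Other marked macrophage states of the sample overlapped unequally with the interferon-response macrophages. The top 10% of macrophages by Il12b, Cd207 and Mmp13 (171 cells) shared 26 cells with them, 15.2% (10.2 to 21.5%) of each set. The top 10% by Gdf15, Osm and Gclc shared 6 cells, 3.51% (1.30 to 7.48%), and the top 10% by Cx3cr1 and Tgfbr1 shared 2 cells, 1.17% (0.142 to 4.16%), where the interferon-response macrophages are 10.0% of all gated macrophages. The genes of these last 2 rankings had ratios under 1 in the same 171 cells, so the low overlaps are no separate result.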

How the data were processed

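Immune cells of pooled WT islets were profiled as 1 sample in 2 libraries, mRNA and antibody tags. The deposited values are raw UMI counts per gene or tag and barcode. The file headers name Cell Ranger 8.0.1 as the counting tool, and the submitters' processing notes name the build mm10. How barcodes were selected is not stated in the sources used here. The matrix held 32285 genes and 2 tags; where 2 gene IDs shared a symbol (38 symbols), the ID with more UMIs kept it.

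Of 2237 barcodes 2215 passed the gene and mitochondrial limits, 2003 also the UMI minimum and 1706 also the C1q minimum. Lymphocyte-like cells, a background group, had at least 300 CPM of T, NK or B cell markers and under 500 CPM of C1q. UMIs were summed over 4007891 and 33352335 RNA UMIs in interferon-response and other macrophages. For ratios, exact 95% intervals came from the conditional binomial distribution, for shares from Clopper-Pearson, all for counting error only; a floor of 3 counts served for sums of 0. Scrublet (scanpy 1.11.5) marked 14 cells (0.632%) as doublets, which were kept; an alternative removed the 40 highest scores. Named genes were the rule and label genes, a fixed set, at most 8 genes per list and direction past 1.5-fold by the interval bound nearest to 1, and 15 per direction from all genes. The genes that chose the cells, the members and the lists were chosen with earlier results of these data known. The ratio step was tested on simulated counts. Calculations used numpy 2.4.6 and scipy 1.17.1; promoter windows are RefSeq's. A few genes that met the naming rule are not reported here. Results were recomputed with other choices of cells, scaling and minimums, some of them added after seeing the data.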

Additional observations from a re-analysis of the deposited data

How the results depend on the processing

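No paired analysis was possible because the series holds 1 pooled sample. For the same reason no replicate could be left out. Of the named genes outside the 5 of the rule, the 89 past 1.5-fold kept their direction under up to 14 settings in all 1246 comparisons, as did the 10 lists whose median was past 1.5-fold in 140. The count of genes at least 1.5-fold higher was 1253 and of lower ones 1295 with the median gene set to 0, and 4408 were lower with a UMI minimum of 20, where more genes were tested. The median log2 ratio of type I interferon effectors was 2.06 with the top 20% of cells, 3.29 against macrophages with no UMI of the 5 genes and 2.26 centred. That of the GTPases was 2.53, 4.13 and 2.65 under the same settings and 2.47 ranked by all 7 label markers, and that of NRF2 targets −0.12 centred. The antibody ratios moved with nearly every setting; the counting intervals of CD9 are very narrow and 1 cell carries CD206. The CD9 ratio was 0.911 with the top 5% of cells, 1.04 with the top 20%, 0.997 ranked by Ifit1, Ifit2 and Ifit3, 1.06 by Rsad2 and Cmpk2, 1.14 by all 7 markers, 0.928 within deciles of depth, 1.01 from 10000 UMIs, 1.05 from 500 CPM of C1q, 1.06 without the highest doublet scores, 0.987 without the cells richest in endocrine and acinar RNA, 1.31 against cells with none of the 5 genes and 0.893 from values per cell. The CD206 ratio turned to 0.739 with the top 5% and to 0.662 ranked by Ifit1, Ifit2 and Ifit3 alone; the cause was not tested. In the other settings, in that order, it was 1.85, 2.93 (Rsad2 and Cmpk2), 2.77 (deciles), 3.04 (10000 UMIs), 2.68 (C1q), 2.96 (doublets), 3.04 (endocrine and acinar), 2.31 (none of the 5 genes) and 1.69 (values per cell). Settings chosen after seeing the data were leaving out the richest cell of each group (CD9 0.970, CD206 1.16) and medians over cells (1.15 and 1.11). Genes under 100 UMIs were not compared, and a single sample gives no measure of variation between mice.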

Other observations

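Other gene groups were read in the same 171 interferon-response and 1535 other macrophages, on the total-UMI scale. Genes of arginine, tryptophan and nucleotide metabolism were higher in 6 of 12 cases and lower in none (median log2 0.64), and complement genes in 2 of 9, with none lower. Lipid-associated macrophage genes were lower in 6 of 18 cases and higher in 1, among the lower ones the fatty acid receptor Cd36 (410 against 786 CPM, ratio 0.522, 0.496 to 0.548). Heme and iron genes were lower in 4 of 15 cases and higher in 1, Hamp, the hormone hepcidin, which 12 interferon-response and 17 other macrophages held; its ratio of 11.7 was 6.63 without 1 interferon-response macrophage with 25.6% of its UMIs. Cycling genes were lower in 4 of 8 cases, among them Top2a at 3.74 against 14.6 CPM (0.257, or 0.287 without 1 other macrophage with 10.4% of its UMIs). Sterol genes were higher in 3 of 17 cases and lower in 3, glycolysis genes higher in 2 of 17 and lower in 4. Read against 7.59% of all genes higher and 27.7% lower, the lipid, iron and glycolysis groups were near the background.

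Among the genes leading the whole table outside the lists, Plekha4 stood at 32.2 against 2.49 CPM (12.9-fold, 9.74 to 17.3) and Calhm6, a channel protein, at 206 against 21.0 CPM (9.82-fold, 8.87 to 10.9). The lower ones included Atg2a, a lipid transfer protein of autophagy, at 13.5 against 59.5 CPM (0.226, 0.169 to 0.296) and Hes1, a transcriptional repressor downstream of Notch, at 2.99 against 17.4 CPM (0.172, 0.0886 to 0.304).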
